A study of Capsella orientalis and Capsella grandiflora with 23 samples.

Results

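The genes described here are those whose parental bias could be read in both Capsella grandiflora (Cg) and Capsella orientalis (Co). They were chosen by read number alone: a gene was kept when it had at least 20 allele reads in both cross directions of the deep Cg cross and in both directions of the 2 Co pairs summed. Of 23185 genes with an informative SNP (a position at which the crossed parents differ), 2274 met this. The Cg cross alone would have kept 12171 genes and Co 3005, so Co limited the overlap. At the minimum itself, 42 members had a lowest direction of exactly 20 reads, and 49 genes with 19 were left out. Their median absolute deviations, as defined below, were 0.22 inside and 0.30 outside in Cg, and 0.66 and 0.50 in Co.

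An imprinted gene is expressed mainly from its maternal or mainly from its paternal allele, according to marks laid down before fertilization. Flowering plants show it chiefly in endosperm, the nourishing tissue of the seed, whose cells carry 2 maternal genomes and 1 paternal genome. In Arabidopsis, maternally expressed genes are commonly freed of DNA methylation on the maternal allele before fertilization, and many paternally expressed genes have their maternal allele silenced by Polycomb group proteins. Cg is an outcrosser that rejects its own pollen, and Co is a selfer.

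Endosperm was dissected 6 days after hand pollination of emasculated flowers, from 300 to 500 seeds per replicate. The Cg table used (pair 1) covers a single reciprocal cross between 2 accessions, and the second Cg cross (pair 2) entered none of the classes below. Reciprocal Cg crosses in the samples join accession Cg A with Cg B and Cg C with Cg D, the latter sequenced in 2 runs. The 2 Co tables (pairs 1 and 2) were taken as replicates of reciprocal crosses between accessions Co A and Co B. The samples list 2 replicates and 2 sequencing runs of each Co direction, and no label ties a pair number to either. Column names give parent and direction number without naming a sample. No direction was therefore tied to a named mother, and Cg pair 1 was not assigned to accessions. Nothing in the labels says how the Co replicates were kept apart, so their spread may be partly technical. The tables hold no gene names, so members are given by their interval on the authors' scaffolds (the build was not given in the sources used here). For the same reason the marker genes of endosperm, seed coat and embryo were not checked.

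Reads over the members numbered 2244089 and 2221847 in the 2 Cg directions, with medians of 404.5 and 414.5 reads per gene. The Co libraries held 338666 and 158425 in pair 1 and 440747 and 463137 in pair 2, and their sums gave medians of 108 and 78 reads per gene. A Co share is therefore the less precise of the pair. The median maternal share over members was 65.7% and 66.6% in Cg. It was 62.5% and 68.0% in Co pair 1 and 67.7% and 68.3% in Co pair 2, over the members with at least 20 reads in that library. Direction 1 of Co pair 1 was the lowest of the 6 libraries. Dosage alone gives 66.7%.

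The parental deviation of a gene was its log2 ratio of maternal to paternal reads minus 1, averaged over the 2 directions, so that 0 is the dosage and positive values are maternal. A pseudocount of 0.5 was added to each allele. A gene was called biased in a species when both directions deviated by 1 or more to the same side, which is a maternal share of about 80% or more, or of 50% or less. Near the dosage means a mean deviation within 0.5 of 0. The difference between the directions, divided by 2, is called the accession effect, since the accessions swap parents between directions. It was large: in 69.5% of members in Cg and 63.3% in Co it exceeded the parental deviation. It reached 1 in 479 members in Cg and in 714 in Co. Across the 2274 genes the 2 directions were negatively correlated in Cg (Pearson r = -0.32, Spearman rho = -0.45) and in Co (Pearson r = -0.66, Spearman rho = -0.43).

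Genes biased in Cg leaned the same way in Co. In Cg, 51 members were maternally biased (2.24%) and 57 paternally biased (2.51%). The Co readout did not enter that choice. Of the 51 maternal genes, 37 (72.5%) lay above the dosage in Co, against 43.7% of all members, and their median Co deviation was 0.66 against -0.08 for all members. Of the 57 paternal genes, 49 (86.0%) lay below the dosage in Co, against 56.3% of all members, with a median Co deviation of -1.01. The full size rule was met in Co by 11 of the Cg maternal genes (21.6%, against 2.46% of all members) and by 12 of the Cg paternal genes (21.1%, against 2.15%). The genes share libraries, so no test was made over them. No member was maternal in one species and paternal in the other by this rule. With a minimum of 10 reads 2 genes were opposite, with no minimum beyond 1 read 19 were, and with Co pair 1 alone 1 was.

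**Figure D1:**
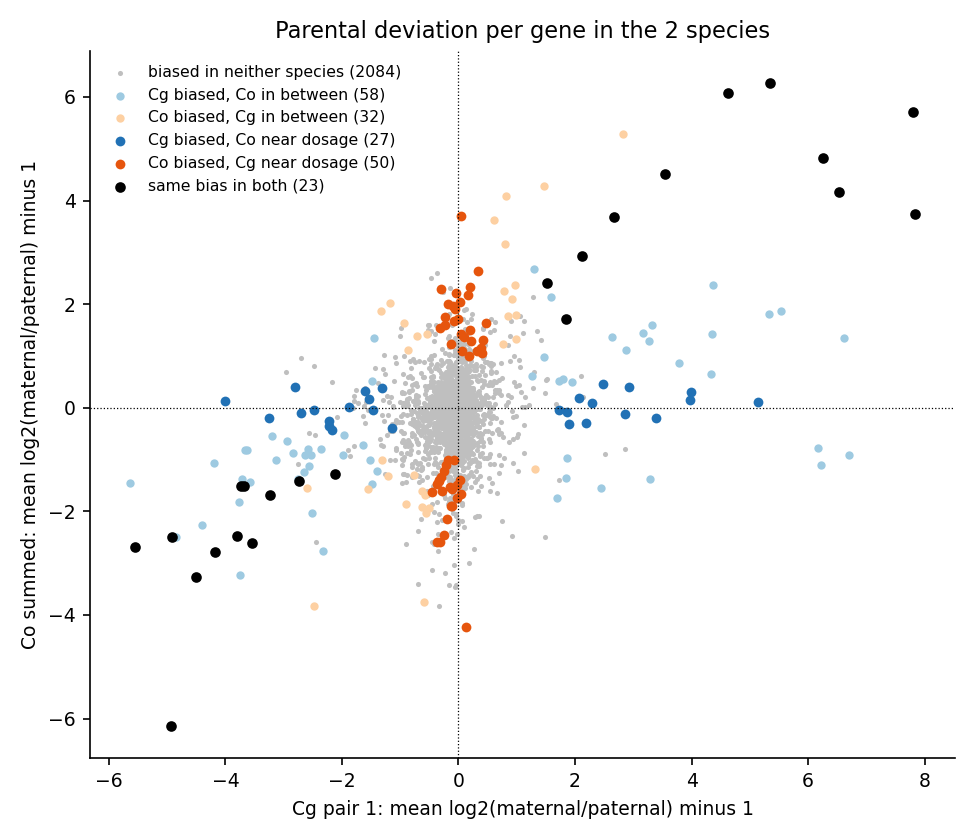
Parental deviation of each of the 2274 members in Cg pair 1 (x axis) and in the summed Co pairs (y axis), both as mean log2(maternal/paternal) minus 1. Colours mark the size classes with their gene numbers. The 23 genes with the same bias in both species lie in the upper right and lower left, and no coloured point marks a gene biased to different sides.

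The lean was seen in each Co library taken alone. Over the members with at least 10 reads there, Cg maternal genes lay above the dosage in 66.7% and 61.5% of cases in Co pair 1 and in 78.0% and 70.6% in pair 2. For all members these shares were 42.0%, 52.2%, 52.6% and 53.7%. Cg paternal genes lay below it in 78.6% and 65.6% of cases in pair 1 and 75.4% and 66.7% in pair 2, where all members gave 58.0%, 47.8%, 47.4% and 46.3%. Read the other way, 39 of the 56 Co maternal genes (69.6%) lay above the dosage in Cg, and 45 of the 49 Co paternal genes (91.8%) lay below it, against 40.3% and 59.7% of all members. Those genes had median Cg deviations of 0.33 and -0.51.

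The Co medians stood farthest from 0 at both ends of the Cg range, and they did not rise at every step between. The 24 members with a Cg deviation below -3 had a median Co deviation of -1.60 (quartiles -2.53 and -1.05), and 1 of them lay above the dosage in Co. The 25 members at 3 or more had a median of 1.43 (quartiles 0.15 and 3.75), and 20 lay above it. The median was -0.14 for the 68 genes between -2 and -1 and -0.27 for the 222 between -1 and -0.5, and it was 0.41 for the 44 between 1 and 2 and 0.30 for the 16 between 2 and 3. Between -0.5 and 0 and between 0 and 0.5 the Co medians were -0.10 and -0.03, over 1012 and 734 genes. Across all 2274 genes, which share libraries and are not replicates, the deviations of the species had a Pearson r of 0.36 and a Spearman rho of 0.19. Among the 2084 genes biased in neither species r was 0.08 and rho 0.10.

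**Figure D2:**
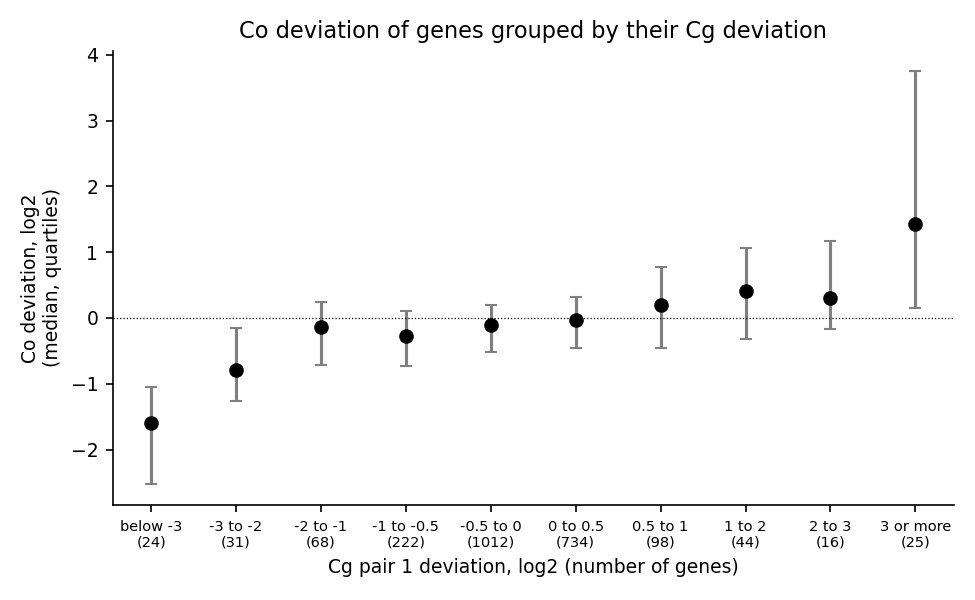
Median Co deviation (log2, points) with its quartiles (bars) for members grouped by their Cg pair 1 deviation (x axis, number of genes in brackets). The group from 2 to 3 holds 16 genes. Medians run from -1.60 in the lowest group to 1.43 in the highest and stay within 0.3 of 0 from -2 to 1.

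Maternal expression shared by the species was near complete in the leading genes. The 11 genes of this class had Cg deviations of 1.51 to 7.84 (median 4.63) and Co deviations of 1.72 to 6.27 (median 4.16). A direction with no paternal read, found in 4 of them in each species, makes that size depend on the pseudocount, and with such a count set to 3 reads the medians were 3.66 and 3.61. Each species' deviation was also tested with edgeR against the dosage, and this used the same reads as the size rule. It called 7 of the 11 in Cg and 6 in Co, those 6 in both, where 1.19% of all members were called maternal in Cg and 0.616% in Co at an adjusted p under 0.05. The Cg test borrows the spread between the Co replicates, since Cg pair 1 has no replicate of a direction. Without direction 2 of Co pair 1 or of Co pair 2 no Co bias was called among all members (149 and 138 at an unadjusted p under 0.05), and 14 and 12 Cg biases remained of 62. The 5 genes with the largest shared bias and at least 40 reads in every direction are called A to E. Wilson intervals (95%) given with shares cover counting error only, and a read that spans several SNPs was counted at each.

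Gene A (scaffold 1, 4155070 to 4156370, plus strand) gave 327 maternal reads of 328 and all of 455 in Cg, and 441 of 444 (99.3%, 98.0% to 99.8%) and 562 of 568 (98.9%, 97.7% to 99.5%) in Co. Each species rested on 1 SNP, at different positions. Gene B (scaffold 3, 7121264 to 7122908, plus strand) had no paternal read in Cg, where 97 and 59 reads set lower limits of 96.9% and 94.9% on the maternal share. In Co it gave all of 75 reads and 96 of 100 (90.2% to 98.4%), and the 4 Co libraries taken singly gave shares of 94.1% or more. Each Co value of B came from 1 SNP. The bias of B was past the test in both species (edgeR adjusted p = 0.0206 in Cg and 0.0307 in Co). Gene C (scaffold 6, 7140391 to 7146417, plus strand) was 97.8% (96.4% to 98.7%) and 98.3% (97.3% to 99.0%) maternal in Cg. All 16 of its Cg SNPs with at least 10 reads lay on the maternal side. In Co all of 59 and of 76 reads were maternal, which allows shares down to 94.9% and 96.1%.

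Gene D (scaffold 3, 4851456 to 4853543, plus strand) had 273 maternal reads of 275 and all of 155 in Cg, and shares of 98.9% (98.1% to 99.4%) and 93.7% (91.1% to 95.5%) in Co. It held 17 SNPs in Co, and the 11 with at least 10 reads all lay on the maternal side. Its bias had the smallest Co p of the 5 (edgeR adjusted p = 5.94e-05). Gene E (scaffold 2, 831700 to 834459, minus strand) had no paternal read among 210 and 250 in Cg. In Co it was 94.7% (91.7% to 96.7%) and 98.0% (94.2% to 99.3%) maternal, and its Co bias missed the threshold (edgeR adjusted p = 0.0573). A single library accounted for 17 of its 20 paternal Co reads: direction 1 of pair 1 gave 84.7% (76.8% to 90.2%), against 97.4% or more in the other three. Of the 8 Co SNPs of E with at least 10 reads, 6 lay on the maternal side.

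Paternal expression was shared by 12 genes, and by size the deviation was the larger in Cg in 11 of them. Cg deviations ran from -5.55 to -2.12 (median -3.77) and Co deviations from -6.14 to -1.28 (median -2.48). The edgeR test called 11 of the 12 in Cg and 4 in Co, those 4 in both, where 1.54% of all members were called paternal in Cg and 0.748% in Co. The test of the difference between species called 0 of the 12 (3 at an unadjusted p under 0.05). Among all members it called 0.484% (148 genes at an unadjusted p under 0.05). The 5 leading genes are called F to J.

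Gene F (scaffold 7, 11097355 to 11102864, minus strand) was the most paternal in Co, with 1 maternal read of 96 and 6 of 132 at a single SNP. Its Cg shares were 4.16% and 8.99%. Its species difference, Co minus Cg, was -1.49 ± 0.92 (SE) on the log2 scale and missed the threshold (edgeR adjusted p = 1). It ran from -4.36 without direction 2 of Co pair 2 to -0.55 without direction 1 of that pair, and was -3.33 without direction 1 of Co pair 1 and -0.88 without Cg direction 2. Gene G (scaffold 7, 3283770 to 3290676, minus strand) had maternal shares of 7.02% (5.48% to 8.95%) and 2.29% (1.54% to 3.38%) in Cg. In Co they were 42.3% (32.0% to 53.4%) and 11.0% (5.88% to 19.6%), so the Co directions lay apart and both above those of Cg. Its difference of 2.79 ± 0.72 was not called (edgeR adjusted p = 0.243). It was 2.63 and 3.06 without directions 1 and 2 of Co pair 1, and 3.07 and 2.13 without those of Co pair 2. A replicate block lets the parental ratio differ between the Co pairs, though no label ties a pair number to a replicate. With this block the difference was called (edgeR adjusted p = 0.0379), in a fit with 1 residual degree of freedom against 2 in the main fit. Both species' biases were called for F and G, with Co deviations of -6.42 ± 0.62 (edgeR adjusted p = 0.000283) and -2.77 ± 0.47 (adjusted p = 0.014).

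Gene H (scaffold 8, 11874786 to 11876861, minus strand) was 6.60% and 28.5% maternal in Cg. Its Co shares were 25.9% (16.1% to 38.9%) and 22.5% (12.3% to 37.5%). Gene I (scaffold 6, 14286090 to 14287603, plus strand) was 1.95% and 16.4% maternal in Cg and 38.6% (27.1% to 51.6%) and 15.9% (7.93% to 29.4%) in Co. For gene J (scaffold 4, 6231489 to 6235749, plus strand) the Cg shares were 6.51% and 23.9%, and those of Co 36.6% (28.6% to 45.4%) and 45.8% (36.2% to 55.8%). The Co directions of these 3 genes were all under 50%, and only those of H overlapped the Cg range in both. Their Cg bias was called (edgeR adjusted p of 0.0335, 0.0127 and 0.0226), and their Co bias was not (0.0635, 0.0921 and 0.215). Each Co value of H and J came from 1 SNP.

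**Figure D3:**
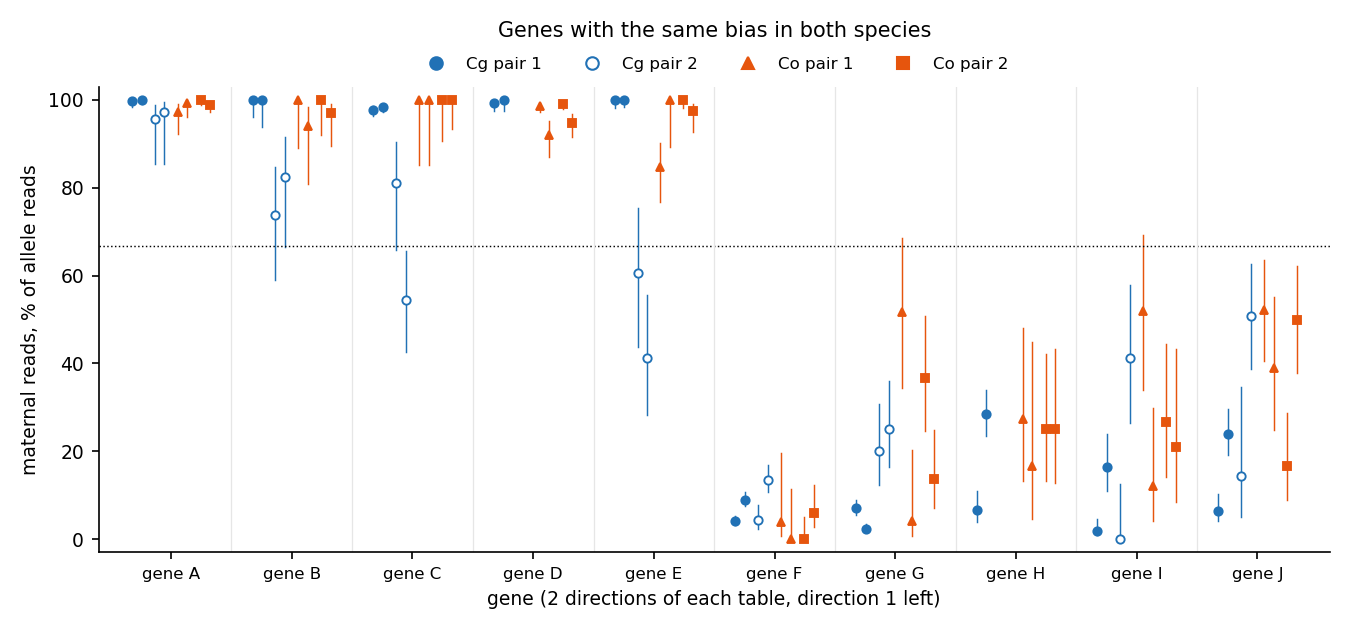
Maternal share of allele reads (%) in each direction of each table for genes A to E (maternal in both species) and F to J (paternal in both), with 95% Wilson intervals as bars. Values with fewer than 10 reads are not drawn, and the dotted line is the 2 to 1 dosage of 66.7%. In genes A to E all filled symbols lie at 84.7% or more, and in F to J at 52.2% or less.

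A bias in Cg with Co near the dosage was found in 27 genes, 13 maternal and 14 paternal. These are 25.5% and 24.6% of the Cg biased genes of each side, and 57.2% of all members were near the dosage in Co. Their Cg deviations had medians of 2.47 and -2.20, and Co medians were 0.09 and -0.04. In this class a Co mean near the dosage seldom meant both directions near it. Each Co direction lay within 0.5 of 0 in 3 of the 13 and 1 of the 14. The like count was 479 of the 1301 members near the dosage in Co. The Cg bias was called by edgeR in 7 and 5 of them, the Co bias in 0 of 27, and the species difference in 3 and 1. The class was chosen on the same deviations, so nothing is read from these counts, where all members gave 0.484% for the difference.

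The named genes of the class differed in how far apart their Co directions lay. At scaffold 8, 2240645 to 2242436 (minus strand), maternal shares were 15.8% (13.1% to 18.9%) and 40.6% (36.0% to 45.5%) in Cg and 64.9% (60.5% to 69.1%) and 67.0% (63.0% to 70.8%) in Co. The difference of 2.39 ± 0.48 missed the threshold (edgeR adjusted p = 0.0695). It was 1.46 without Cg direction 1 and 3.32 without Cg direction 2, fits in which Cg accession and parent cannot be told apart. The difference was called without direction 1 of either Co pair, in fits with fewer residual degrees of freedom than the main fit. It was also called with the median null, with the replicate block and at a minimum of 1 read (edgeR adjusted p of 0.0430 or less throughout). The gene at scaffold 6, 13861261 to 13864988 (minus strand) had 42.8% and 11.2% in Cg, with all 10 well-read SNPs on the paternal side, and 56.9% and 72.5% in Co. Of its 16 Cg SNPs, only 1 lay in an annotated exon. On the maternal side, the gene at scaffold 6, 7401948 to 7403323 (plus strand) had 98.6% (96.8% to 99.4%) and 94.1% (90.8% to 96.3%) in Cg, and 55.0% and 84.0% in Co.

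Further members of the class were split by accession in Co. The gene at scaffold 4, 11323031 to 11323372 (plus strand) was 89.5% and 99.9% maternal in Cg, but 4 of 106 reads were maternal in Co direction 1 and all of 52 in direction 2. At scaffold 7, 10294853 to 10295767 (minus strand), Cg shares were 94.9% and 98.3% and Co shares 98.6% and 8.89%. The paternal gene at scaffold 7, 16769192 to 16771139 (minus strand) had 18.1% and 16.0% in Cg, and 1 of 40 and all of 40 reads in Co. In these 3 genes nearly all Co reads followed the accession and not the parent, and the mean near 0 is an average of opposite deviations. Each of these Co values came from 1 SNP. For the gene on scaffold 4, 1 of the 2 Cg SNPs with at least 10 reads lay on the maternal side.

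The reverse class, biased in Co and near the dosage in Cg, held 50 genes, 27 maternal and 23 paternal, with smaller deviations. Their Co medians were 1.63 and -1.57. In 15 and 9 of them each Cg direction lay within 0.5 of 0, against 883 of the 1746 members near the dosage in Cg. Of the Co biased genes, 48.2% of the maternal and 46.9% of the paternal were near the dosage in Cg, and 76.8% of all members were. They were thinly read in Co, with medians of 113 and 83 reads against 185 for all members. The edgeR test called the Co bias of 2 and 1 of them, where 0.616% of all members were called maternal and 0.748% paternal in Co. It called the species difference in 0 of 50 (14 at an unadjusted p under 0.05), against 0.484% of all members (148 genes unadjusted). The class was chosen on the same deviations, so nothing is read from these counts. The class shrank to 17 genes at a minimum of 50 reads and to 12 at a deviation of 1.5, and grew to 153 with Co pair 1 alone.

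The lowest Co p among the 4 named maternal genes of this class was that of the gene at scaffold 8, 7159828 to 7162046 (minus strand). Its 4 Co libraries gave maternal shares of 94.1%, 90.1%, 91.9% and 93.6%, and its Co bias was 2.64 ± 0.40 on the log2 scale (edgeR adjusted p = 0.00615). Its Cg shares were 86.1% (78.1% to 91.6%) and 51.7% (41.5% to 61.8%), apart by accession, and the difference of 2.28 ± 0.66 was not called (edgeR adjusted p = 0.342). It was 3.53 without Cg direction 1 and 1.02 without Cg direction 2, fits in which Cg accession and parent cannot be told apart. The difference was called without direction 1 of Co pair 2, in a fit with fewer residual degrees of freedom than the main fit. Each Co value of this gene came from 1 SNP. The other 3 maternal genes of the naming rule had Co shares of 84.5% and 94.9% (scaffold 6, 16309847), 86.1% and 86.7% (scaffold 3, 492804), and 83.2% and 83.6% (scaffold 7, 2968299). Their Cg shares lay between 64.2% and 74.1%. None of these Co biases was called (edgeR adjusted p of 0.151, 0.254 and 0.345).

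Among the paternal genes of that class, the gene at scaffold 5, 367352 to 369346 (minus strand) had Co shares of 38.3% (29.1% to 48.4%) and 23.9% (13.9% to 37.9%) and Cg shares of 68.2% and 58.9%. Its Co libraries disagreed within direction 1, at 15.7% in pair 1 and 65.1% in pair 2. The genes at scaffold 6, 7124022, scaffold 1, 4418093 and scaffold 7, 1651613 had Co shares between 33.1% and 49.0% and Cg shares between 58.6% and 72.1%. The Co bias of these 4 genes missed the threshold (edgeR adjusted p of 0.097, 0.226, 0.417 and 0.0702).

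The direct test of the species difference was an interaction of parent and species over all 2274 genes. Each species entered it as a single pair of accessions, so species and accession pair cannot be told apart. Its spread came from the Co replicates only, and Cg was assumed to vary as Co does. The test called 11 (0.484%), of which 4 were more maternal in Co (0.176%) and 7 more paternal (0.308%), and 148 passed an unadjusted p under 0.05. By size, 9 of the 11 were biased in Cg, and 1 in Co. They are called K to U in order of p. All 11 calls were lost, with 0 left, when direction 2 of Co pair 1 or of Co pair 2 was left out (73 and 80 genes at an unadjusted p under 0.05) or when the accession term was dropped (21). Leaving out direction 1 of Co pair 1 or of Co pair 2 raised the count to 33 or 82. Where a Cg direction was left out, no accession term could be fitted for Cg, so its accession and parent effects cannot be told apart.

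Gene K (scaffold 8, 6227717 to 6228966, minus strand) was 94.3% (93.7% to 94.9%) and 92.7% (92.1% to 93.4%) maternal in Cg and 68.2% (65.8% to 70.4%) and 61.4% (58.8% to 64.0%) in Co. The difference, Co minus Cg, was -2.98 ± 0.26 (edgeR adjusted p = 0.00036). Gene O (scaffold 2, 771892 to 773906, plus strand) showed the same form, at 87.9% and 88.5% in Cg and 56.4% and 66.5% in Co, with a difference of -2.21 ± 0.31 (edgeR adjusted p = 0.00764) that DESeq2 did not call (adjusted p = 0.157). So did gene Q (scaffold 7, 7682456 to 7683199, minus strand), at 97.2% and 92.9% in Cg and 55.0% and 71.3% in Co, with -3.74 ± 0.60 (edgeR adjusted p = 0.0177) from 1 SNP in each species. In these 3 genes the 4 Co libraries lay between 50.6% and 72.3%, below both Cg directions.

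Paternal bias in Cg marked genes N, S and T. Gene N (scaffold 4, 2853692 to 2854453, minus strand) was 7.37% (6.29% to 8.63%) and 16.3% (14.8% to 18.0%) maternal in Cg and 86.7% (77.8% to 92.4%) and 43.4% (31.0% to 56.7%) in Co, a difference of 4.15 ± 0.55 (edgeR adjusted p = 0.00577). Gene S (scaffold 3, 12541871 to 12545909, minus strand) was 18.4% and 25.5% maternal in Cg and 51.0% (47.9% to 54.0%) and 53.3% (49.7% to 56.9%) in Co. It differed by 1.99 ± 0.36 (edgeR adjusted p = 0.0371), and Co still lay below the dosage in both directions. Gene T (scaffold 6, 13771203 to 13773506, plus strand) was 13.2% and 7.17% maternal in Cg, and 22.6% and 75.9% in Co.

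Gene M (scaffold 8, 8879381 to 8883328, plus strand) was paternal in Co and divided by accession in Cg. Its Co shares were 13.2% (10.8% to 16.1%) and 12.6% (10.4% to 15.1%), and its Cg shares 78.4% and 32.8%. The difference was -3.14 ± 0.41 (edgeR adjusted p = 0.0057). Without Cg direction 1 it was -1.69 and no longer called (adjusted p = 0.0832). Gene R (scaffold 1, 12065572 to 12072252, plus strand) was 95.2% and 95.3% maternal in Cg, and 61.9% (59.7% to 64.1%) and 95.8% (94.7% to 96.7%) in Co, where both pairs showed the same gap between directions. It was called maternal in both species (edgeR adjusted p = 3.28e-05 in Cg and 0.00107 in Co), and its difference was -1.80 ± 0.29 (edgeR adjusted p = 0.0181). Of the Co SNPs of gene R with at least 10 reads, only 2 of 5 lay on the maternal side, against 9 of 11 in Cg.

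The remaining calls rested on genes with a wide gap between directions. Gene L (scaffold 2, 12474957 to 12476226, minus strand) was 99.0% and 99.9% maternal in Cg, and 93.2% and 7.60% in Co. Gene U (scaffold 7, 439288 to 445158, plus strand) was 96.5% and 82.0% maternal in Cg, and 84.9% and 7.66% in Co. For these genes each Co value came from 1 SNP. Gene P (scaffold 6, 6317114 to 6319295, plus strand) was 91.4% and 9.94% maternal in Cg at 1 SNP, and 71.8% and 66.6% in Co over 44 SNPs. Its difference of 1.05 ± 0.16 (edgeR adjusted p = 0.0128) became -2.23 without Cg direction 2 and 4.34 without Cg direction 1. The calls of T and U were lost without Cg direction 2 (edgeR adjusted p = 0.103) and Cg direction 1 (0.166).

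**Figure D4:**
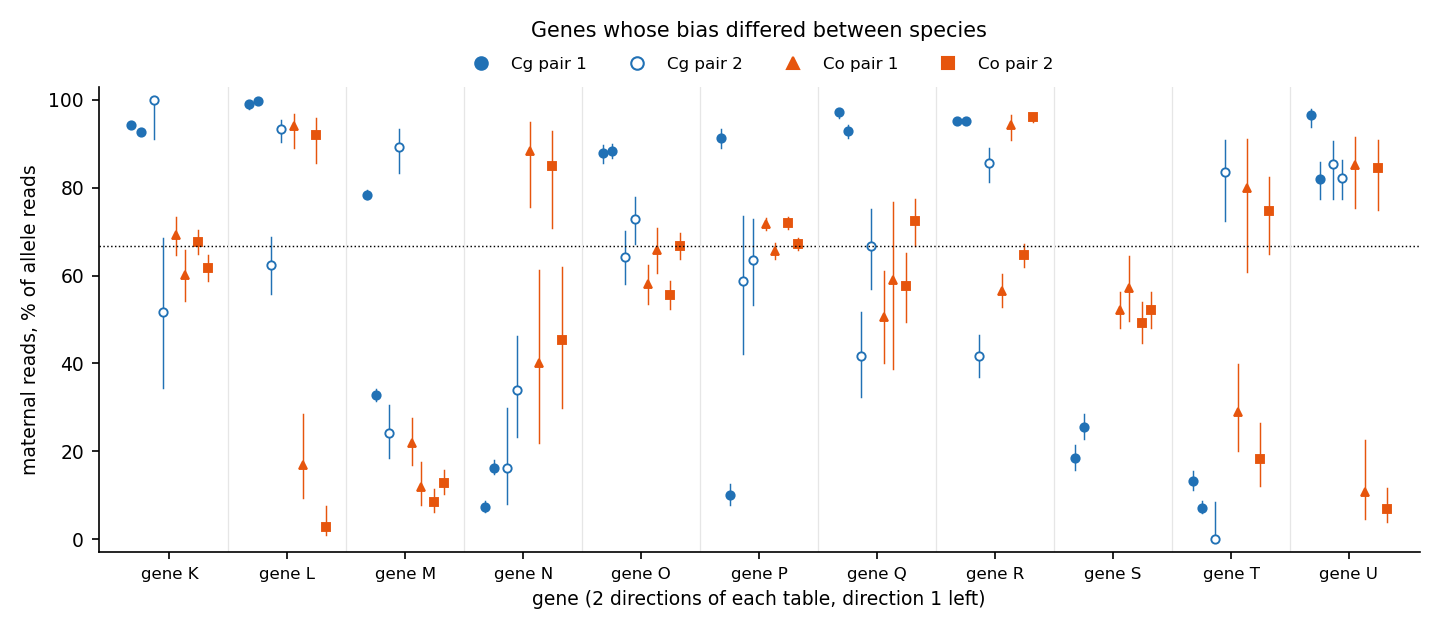
Maternal share of allele reads (%) in each direction of each table for the 11 genes whose bias differed between Cg pair 1 and Co by edgeR (K to U, in order of p), with 95% Wilson intervals as bars. Values with fewer than 10 reads are not drawn, and the dotted line is the dosage of 66.7%. In genes K, O and Q both Cg pair 1 directions lie above all Co libraries, and in L, M, N, P, R, T and U the directions of a species lie far apart.

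The second Cg cross, used neither in the choice of members nor in the classes, gave a separate reading of the Cg biases. It had at least 10 reads in both directions for 1462 members, with a median deviation of -0.52. Over members with at least 20 reads in a direction, its median maternal share was 53.7% in direction 1 and 63.4% in direction 2. Of the paternal genes of pair 1, 34 of 36 (94.4%) lay below the dosage there, against 78.2% of all members, and 14 (38.9%) met the size rule in both directions, against 7.11%. Of the maternal genes, 20 of 34 (58.8%) lay above the dosage, against 21.8% of all members, and 6 (17.6%) met the rule, against 0.752%.

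Genes shared with Co and genes biased in Cg without Co were then read separately in that cross. The 7 shared paternal genes had a median of -2.76 and all lay below the dosage, and the 29 paternal genes not biased in Co had a median of -1.77. The 10 shared maternal genes had a median of 0.32, with 3 past the size rule, and the 24 maternal genes not biased in Co had 0.05, with 3 past it. No test was made between these groups. Gene A was 95.7% and 97.1% maternal in pair 2, gene B 73.8% and 82.4%, and gene C 81.1% and 54.4%. Gene F was 4.37% and 13.6% maternal, gene G 20% and 25%, and gene J 14.3% and 50.8%. Gene I gave 0 of 27 reads and 41.2%. Genes D and H had fewer than 10 reads in a direction. Gene E, with no paternal read in pair 1, was 60.6% (43.7% to 75.3%) and 41.3% (28.3% to 55.7%) maternal in pair 2.

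The genes with a called species difference were mixed in the second Cg cross, where 10 of the 11 had at least 10 reads in both directions. Gene Q was 41.7% (32.3% to 51.7%) and 66.7% (57.1% to 75.1%) maternal there, and gene O 64.3% (58.0% to 70.1%) and 72.9% (67.3% to 77.8%). These values lie below both directions of pair 1 and near those of Co. Direction 1 of pair 2 was itself low over all members, with a median maternal share of 53.7%, and no value was adjusted for this. Gene K gave all of 39 reads as maternal and then 51.7% (34.4% to 68.6%) of 29. Gene N kept its paternal side, at 16.3% and 33.9%, and gene U its maternal side, at 85.3% and 82.3%. In genes L, M, R and T the directions of pair 2 lay apart, at 62.5% and 93.4%, 24.1% and 89.3%, 41.7% and 85.6%, and 0 of 42 reads and 83.6%. Gene P was close to the dosage in both, at 58.8% and 63.6%.

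**Figure D5:**
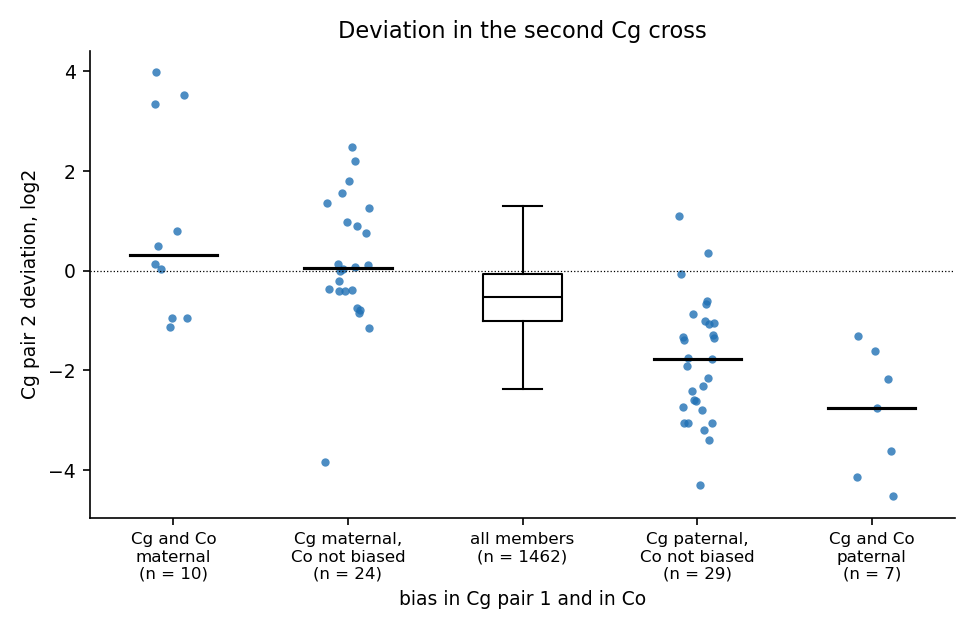
Deviation in Cg pair 2 (log2, mean of 2 directions) for members with at least 10 reads in each of its directions, grouped by their bias in Cg pair 1 and Co. Points are genes and thick lines medians. The box for all 1462 members shows the median of -0.52 with quartiles and whiskers to 1.5 times the quartile range. Paternal groups have medians of -1.77 and -2.76, and maternal groups of 0.05 and 0.32.

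Maternally biased genes were shorter than paternally biased ones, a property the rule did not use. The median gene interval was 2015 bp in the 51 Cg maternal genes (quartiles 1396 and 2777) and 3364 bp in the 57 Cg paternal genes (quartiles 2304 and 4191), against 2990 bp for all members. In Co the medians were 2472 bp and 3095 bp. Intervals under 2000 bp made up 49.0% of the Cg maternal and 17.5% of the Cg paternal genes, against 22.2% of all members. In Co these shares were 37.5% and 28.6%. No test was made over genes.

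By size, biased genes made up a somewhat smaller share of the members than of the genes left out. No test was made, and read depth was not matched between the sets. In Cg 2.24% of members were maternal and 2.51% paternal, against 3.49% and 2.76% of the 9897 genes that passed in Cg only. In Co the shares were 2.46% and 2.15% of members, against 3.01% and 2.74% of 731 (22 and 20 genes). Members held a median of 6 SNPs in Cg and 2 in Co, and 842 rested on a single Co SNP. An SNP position listed in both species was found in 104 members (4.57%) and in 0 of the 23 genes with a shared bias, so the reads behind their shared bias came from different positions in the species.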

How the data were processed

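The deposited tables list, per the file headers, whole-number counts of maternal and paternal reads at each SNP in 2 cross directions, with exon and gene intervals. Trimmomatic, Bismark and Bowtie2 are named without roles per the submitters' processing notes. Which RNA aligner, SNP caller and build were used, and how repeat sequencing runs were combined, was not given in the sources used here. Of the columns in each table, 24 stayed unused.

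Counts were summed over the SNPs of a gene (an SNP with no entry in a direction counted 0 there), and the Co pairs were summed by direction number. The 4 Co libraries stayed separate in the test. A quasi-likelihood model was fitted with edgeR 4.0.16 in R 4.3.3 to 12 allele columns of 6 libraries, with library as a block, accession and parent within each species, and a dosage offset on maternal columns. This left 2 residual degrees of freedom, both from the Co replicates. SE is the deviation divided by the square root of F. Adjusted p-values are Benjamini-Hochberg over 2274 genes, called at 0.05. The fit was tested on simulated data. Intervals are Wilson's (scipy 1.17.1).

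Named genes passed 40 reads in each direction and led their class by the smaller of the 2 deviations (shared bias, 5 a side) or by the species difference (4 a side). To these were added the 10 called differences of lowest p, and gene U as the last of the 11 after its values were seen. Members, classes and lists were chosen with earlier results of these data known. Lists of marker and known imprinted genes were not used, since no table pairs intervals with names. DESeq2 1.42.0 and the other alternatives are given in the closing section.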

Additional observations from a re-analysis of the deposited data

Results flagged for a closer look

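The tested species differences, Co minus Cg on the log2 scale, mark 11 genes. Those more paternal in Co were K at -2.98, L at -7.78, M at -3.14, O at -2.21, Q at -3.74, R at -1.80 and U at -3.96. Those more maternal in Co were N at 4.15, P at 1.05, S at 1.99 and T at 3.20. The size of L depends on 1 paternal read in a Cg direction.

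Of 25 named genes with at least 20 reads in each of the 4 Co libraries, 1 had a library far from the other three: gene E, with 84.7% maternal reads in direction 1 of Co pair 1. Chance alone marks about 1 in 20 such sets.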

How the results depend on the processing

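The call counts were 11 species differences, 31 Co biases and 62 Cg biases. They changed by less than 1.5 times with DESeq2 (11, 39 and 71), TMM factors (11, 26 and 57) and a null at each direction's median (12, 36 and 61). So they did with a minimum of 10 reads (9, 33 and 52) and one of 50 (11, 32 and 48). DESeq2 shared 7 of the 11 differences, with genes O, P, R and S lost. It shared 20 of the 31 Co biases and 54 of the 62 Cg biases. TMM turned the Co split from 14 maternal and 17 paternal to 16 and 10, and SNPs in annotated exons to 13 and 7 (20 calls; 9 differences and 42 Cg biases). Without the accession term each count was 0 (21, 95 and 59 at an unadjusted p under 0.05). At least 1 read per direction, over 5509 genes, gave 22, 76 and 72. The replicate block, which lets the parental ratio differ between the Co pairs, gave 31, 102 and 88 and left 1 residual degree of freedom. The deviation of Co pair 1 minus that of pair 2 in direction 1 correlated with the same difference in direction 2 by -0.08 over 1060 genes. With 2 pairs, and allele ratios only, this cannot show whether libraries of a pair number share anything else. Leaving out each library gave 0 to 85 differences, 0 to 197 Co biases and 12 to 136 Cg biases. The cause of these shifts was not tested. The accession term of Cg was dropped where a Cg direction was left out. Each fit without a Co library had fewer residual degrees of freedom than the main fit. The species difference of gene P, 1.05, reversed to -2.23 without Cg direction 2 and was 4.34 without Cg direction 1.

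The classes by size depended on depth and threshold. Shared maternal genes, 11 in number, became 7 at a deviation of 2, 20, 6 and 41 at minimums of 10, 50 and 1 reads, 17 with Co pair 2 alone and 2 with Cg pair 2 in place of pair 1 (1123 genes, chosen after seeing the data). Shared paternal genes, 12 in number, became 6 and 5 at deviations of 1.5 and 2, 5 and 36 at minimums of 50 and 1, and 5 with Cg pair 2. The 27 genes biased in Cg and near the dosage in Co became 16 and 11 at those deviations, and 15 and 100 at those minimums. The 50 of the reverse class became 12 and 3 at those deviations, 100, 17 and 327 at minimums of 10, 50 and 1, 153 with Co pair 1 alone and 12 with Cg pair 2. Opposite genes, 0 in number, became 2 and 19 at minimums of 10 and 1, and 1 with Co pair 1 alone. The correlation of the species over genes fell to 0.24 with Co pair 1 alone.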

Other observations

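Biased members lay on all 8 large scaffolds, from 6.85% of the members of scaffold 4 to 10.0% of those of scaffold 8, against 8.36% of all members. A stretch of scaffold 6 from 7100000 to 7500000, picked after its values were seen, held 18 members, of which 6 were biased in a species. Gene C and the gene at 7319595 to 7321547 (Cg deviation 2.13, Co 2.94) were maternal in both species, and the gene at 7401948 was maternal in Cg (3.98) and near the dosage in Co (0.30). The genes at 7110646 and 7124022 were paternal in Co (-1.67 and -1.57) and near the dosage in Cg (0.05 and -0.11). The gene at 7489637 was paternal in Co (-1.62) and lay at -0.62 in Cg. Maternal and paternal bias thus lay side by side there, and the other 12 members of the stretch were biased in neither species.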
